A study of Rattus norvegicus with 28 samples.

Results

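The granin genes Chga, Chgb, Scg2, Scg3, Scg5 and Vgf were described in INS-1 cells, which come from a rat beta cell tumour and release insulin. Members were taken by gene symbol from a table of TPM, a level per transcript length that adds up to the same total in every library. For a symbol listed more than once, the transcript with the largest mean over the libraries was kept. The rule found 6 genes among the 17455 symbols of the table, each with 1 transcript, and used no measured difference between groups.

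The study asked how phosphorylation of Med14, a scaffold subunit of the Mediator complex that connects transcription factors with RNA polymerase II, shapes the response of beta cells to a GLP-1 receptor agonist. Bulk RNA-seq libraries were made from cells with unaltered Med14 (WT) and from cells with a knock-in that puts alanine in place of the phosphorylated serine (Med14 S983A). In each genotype 1 untreated group (CON) was set beside groups given 10 nM exendin-4 (Ex-4), which activates the GLP-1 receptor, or 10 µM forskolin (FSK), which activates adenylyl cyclase, for 1, 8 or 16 h. Cells were kept in serum-free medium before treatment, and the 14 groups held 2 libraries each, 28 in all. The knock-in lines grew from single sorted cells after electroporation of a CRISPR vector and repair template and puromycin selection. The study made more than one S983A line, and the labels do not say which one each library came from, so the substitution and other differences between clonal lines cannot be told apart. Each genotype had the same CON libraries for every time point, and the labels do not give them an exposure time. The study's methods call the duplicates biological replicates without saying what separates them, such as cultures or lines, and p-values measure the spread between these libraries.

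Granins are acidic proteins of the regulated secretory pathway. They aggregate with calcium in the trans-Golgi network, help to pack hormones into dense-core granules and are cut at pairs of basic residues into peptides that leave the cell with the hormone. Chga and Chgb are the classical chromogranins, Scg2 is the precursor of secretoneurin, and Vgf, first found as a gene induced by nerve growth factor, gives several bioactive peptides. Scg3 binds Chga and the cholesterol-rich granule membrane, and Scg5 is the chaperone of the convertase Pcsk2. Cyclic AMP acts on many promoters through the factor CREB and its site, the cyclic AMP response element (CRE).

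The sequences before 3 granin start sites are shown because Vgf and Scg2 both carry a full CRE and were the members that moved farthest, in opposite directions, while Chgb carries none. They are the 250 bases before the RefSeq start site in build GRCr8, read 5′ to 3′ on the strand of the gene. Capitals mark the CRE, TGACGTCA.
Vgf, chr12:25277021-25277270, minus strand: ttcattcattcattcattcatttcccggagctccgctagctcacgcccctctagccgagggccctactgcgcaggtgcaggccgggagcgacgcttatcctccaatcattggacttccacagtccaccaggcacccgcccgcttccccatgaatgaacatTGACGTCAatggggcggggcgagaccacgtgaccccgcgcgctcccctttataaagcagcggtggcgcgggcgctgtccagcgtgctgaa
Scg2, chr9:88256867-88257116, minus strand: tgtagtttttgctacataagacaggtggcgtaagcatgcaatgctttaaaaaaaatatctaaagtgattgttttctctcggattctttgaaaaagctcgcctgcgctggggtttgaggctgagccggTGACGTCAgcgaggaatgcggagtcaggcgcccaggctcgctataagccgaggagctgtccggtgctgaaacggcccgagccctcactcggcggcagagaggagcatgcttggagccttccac
Chgb, chr3:140496462-140496711, plus strand: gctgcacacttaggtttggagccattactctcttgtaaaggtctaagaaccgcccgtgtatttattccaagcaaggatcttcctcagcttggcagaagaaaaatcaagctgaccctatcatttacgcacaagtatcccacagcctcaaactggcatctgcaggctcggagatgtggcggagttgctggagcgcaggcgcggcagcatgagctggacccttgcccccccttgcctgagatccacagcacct

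Promoter windows of 300 bases, from 250 before to 50 after the start site, were given for 5 of the 6 members. Chga had no entry. The CRE lay at -90 to -83 in Vgf and at -123 to -116 in Scg2, counted from the start site, and it occurred in 1.83% of 33469 rat windows of that length. The half-site TGACG, which the full site contains on both strands, stood alone at -69 to -65 in Scg3 and at -7 to -3 and 15 to 19 in Scg5. This half-site was found in 21.2% of the windows. The AP-1 letters TGANTCA, found in 7.33% of windows, matched none of the 5 members, and Chgb matched none of these motifs. Both strands were searched, and a match is a run of letters, not a shown binding site.

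Positions of the transcripts are in the rat build rn6, which the deposited values use. Chga (NM_021655) lies on chromosome 6 from 126434226 to 126445569 on the plus strand and had a mean level of 4918 TPM over all libraries, the rank 5 of 17455 symbols. Chgb (NM_012526) spans 125428260 to 125441600 on the plus strand of chromosome 3, with a mean of 824 TPM. Vgf (NM_030997) spans 22677607 to 22680630 on the minus strand of chromosome 12, with a mean of 795 TPM. These levels placed the genes among the most abundant transcripts, with Chgb at rank 151 and Vgf at rank 154. Scg5 (NM_013175) is on the minus strand of chromosome 3 from 105235069 to 105279399, with a mean of 774 TPM. Scg2 (NM_022669) is on the minus strand of chromosome 9 from 85237537 to 85242842, with a mean of 665 TPM. Scg3 (NM_053856) is on the minus strand of chromosome 8 from 82582352 to 82641536, with a mean of 649 TPM. Each value sums the exons of 1 RefSeq transcript.

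The libraries held 42551133 to 92635979 fragments, and the 6 members had at least 3782 fragments in every library. The deepest library was replicate 2 of Med14 S983A 8 h FSK, and the next held 57231981 fragments. Med14 itself was at 17.2 to 30.03 TPM over all libraries, a level that does not show the substitution. Of 10 beta cell markers, 8 had a median of at least 1 TPM, among them Ins1 and Pdx1, while Ucn3 stayed at 0.556 TPM or less and Mafa had no row. The alpha cell marker Gcg was at 167 TPM in WT CON and 6.32 TPM in Med14 S983A CON and reached 1345 TPM in a WT 8 h FSK library. The alpha cell factor Irx2 was at 0 TPM in every library. The 4 alpha markers summed to 11.3 to 1346 TPM over the libraries. Delta, PP, acinar, fibroblast and endothelial markers each stayed under 1 TPM in every library, and the chromaffin marker Th reached 17.7 TPM in Med14 S983A FSK groups, with Dbh and Pnmt near 0. The part of Gcg-expressing cells in the granin values was not tested, and in bulk RNA fewer cells of a type and less RNA per cell cannot be told apart.

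A difference was tested with limma on log2(TPM + 1) across the 10275 genes whose mean reached 1 TPM. A gene was called when its p, adjusted by Benjamini-Hochberg over all of them, was under 0.05 and its change exceeded 1.5-fold. The treatment contrasts share the CON libraries of their genotype. Over the 12 treatment contrasts the median log2 difference of all genes lay between -0.34 and -0.03 on the deposited TPM and between -0.36 and 0.16 after scaling on the ERCC spike-ins, synthetic RNAs added before library construction. Of the genes called, 20.1% to 67.0% were higher on TPM, 14.5% to 78.9% with the ERCC scaling and 49.0% to 74.6% when libraries were centred on their median. Directions of called granin differences were the same in every one of these fits.

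**Figure D1:**
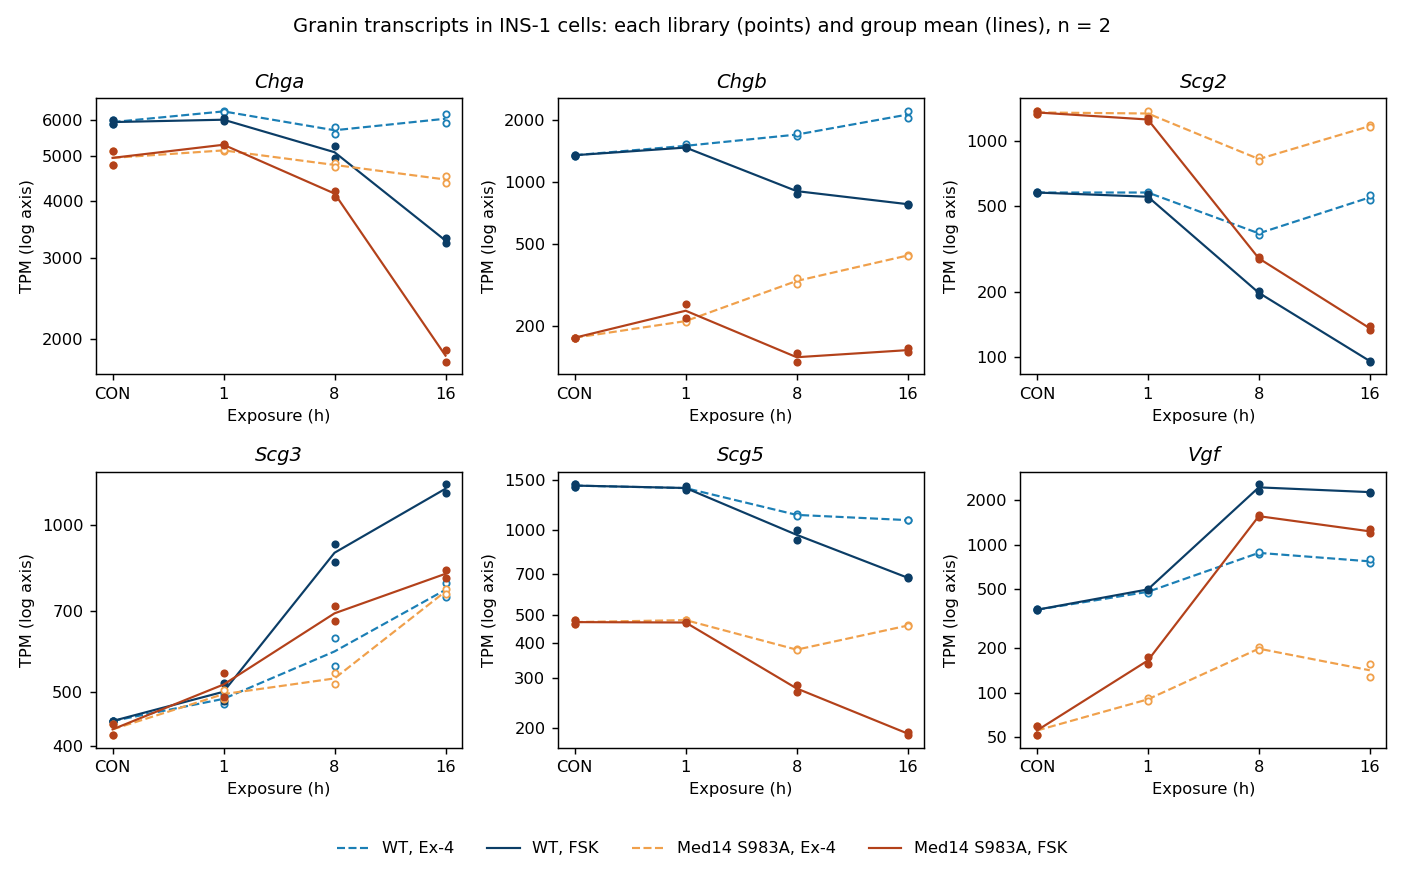
Levels of the 6 granin transcripts in TPM, on a log axis of its own for each gene, against exposure at CON, 1, 8 and 16 h, spaced evenly. Points are single libraries, lines join the means of 2 libraries, dashed for Ex-4 and solid for FSK. Vgf climbs from 367 and 360 TPM in WT CON to 2318 and 2552 TPM at 8 h of FSK, while Scg2 drops from 581 and 575 TPM to 96.7 and 95.5 TPM at 16 h.

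With 1 h of Ex-4 or FSK no granin gene was called in WT cells, where 2.87% and 7.47% of all genes were. In both contrasts 3 members had an unadjusted limma p under 0.05, and edgeR with TMM and DESeq2 on median-of-ratios each called 0 with Ex-4 and 1, Vgf, with FSK. Under ERCC size factors neither edgeR nor DESeq2 called Vgf with FSK. Of all genes, 25.2% with Ex-4 and 44.2% with FSK had a limma adjusted p under 0.05 when no fold minimum was set. At 8 h of Ex-4 the count in WT was 2 of 6 (Vgf higher, Scg2 lower; 9.6% of all genes), and at 16 h it was 3 of 6, all higher (Chgb, Scg3 and Vgf; 11.8%). FSK moved more members in WT. At 8 h 3 of 6 were called (Scg3 and Vgf higher, Scg2 lower), beside 43.6% of all genes. Chgb and Scg5, both at -0.58, stood just short of the fold minimum of that contrast, and the count was 5 without WT 8 h FSK replicate 2. At 16 h all 6 were called, 2 higher and 4 lower, beside 34.5%. The median log2 difference of the members at 16 h of FSK was -0.82 in WT, that of all genes -0.20.

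In Med14 S983A cells 1 member, Vgf, was called at 1 h of Ex-4 (3.04% of all genes) and at 1 h of FSK (10.4%). At 8 h of Ex-4 the count was 3 of 6 (6.3%), with Chgb and Vgf higher and Scg2 lower, and at 16 h Chgb, Scg3 and Vgf were called, all higher (11.9%). At 8 h of FSK 4 of 6 were called (46.1%) and at 16 h 5 of 6 (33.3%). Scg3 and Vgf were the members called higher at both times and Scg2 and Scg5 the ones called lower, joined by Chga at 16 h. Split by direction, the background in WT at 1, 8 and 16 h was 1.75%, 3.61% and 3.53% of all genes higher and 1.12%, 5.99% and 8.28% lower with Ex-4. With FSK in WT it was 2.53%, 8.77% and 10.3% higher and 4.94%, 34.8% and 24.1% lower. In Med14 S983A it was 2.03%, 3.21% and 4.73% higher and 1%, 3.09% and 7.15% lower with Ex-4. With FSK there it was 3.19%, 11.6% and 12.2% higher and 7.2%, 34.5% and 21.1% lower. The share of members called at 8 h of FSK in WT, 3 of 6, stood near the background of 43.6%. In Med14 S983A 4 of 6 stood above the background of 46.1%, in a set of only 6 genes.

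**Figure D2:**
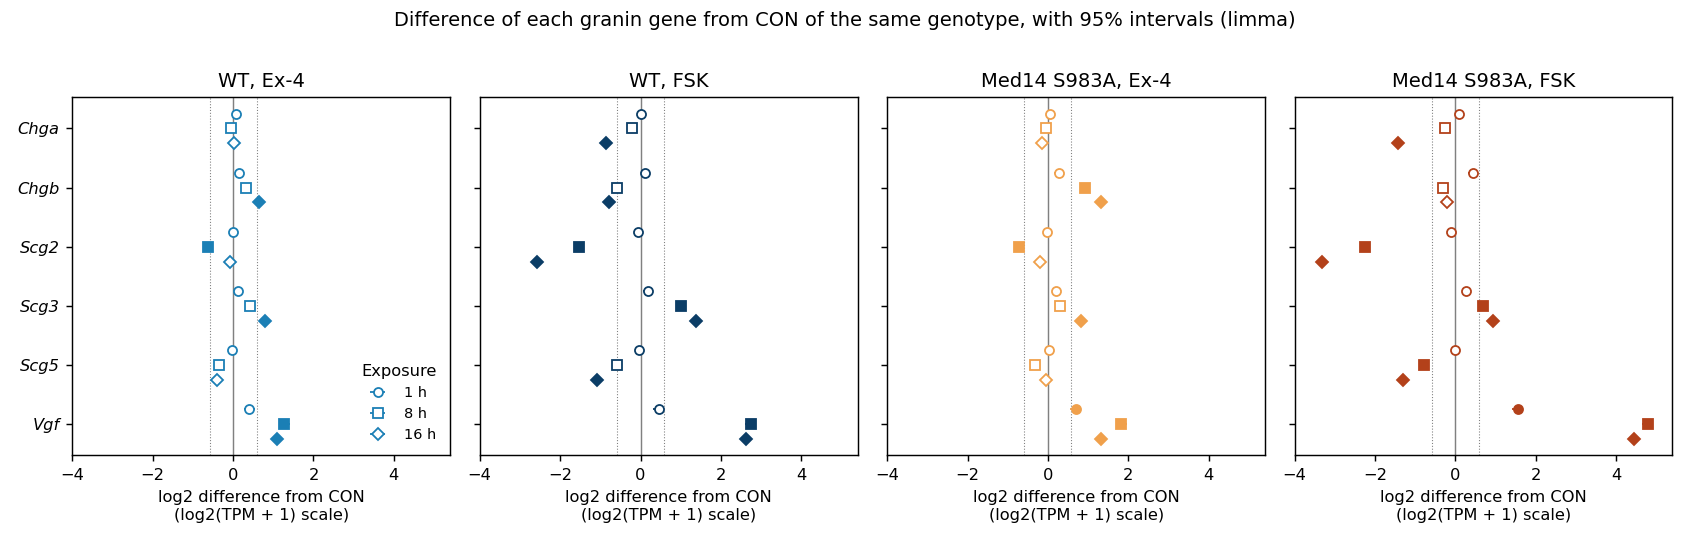
Log2 difference of each granin gene from CON of its genotype at 1, 8 and 16 h (circle, square, diamond), in 4 panels by genotype and agent. Bars are 95% intervals from limma, filled symbols are called genes, and dotted lines mark 1.5-fold. Vgf lies on the right of 0 at every time point, up to 4.78 at 8 h of FSK in Med14 S983A, and Scg2 lies farthest to the left, at -3.31 at 16 h of FSK in the same cells.

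Vgf, the precursor of peptides such as the TLQP family, was called in 10 of the 12 treatment contrasts, higher each time. In WT cells it was at 367 and 360 TPM in CON, 486 and 474 TPM at 1 h, 861 and 899 TPM at 8 h and 746 and 796 TPM at 16 h of Ex-4. With FSK the WT libraries gave 501 and 496 TPM at 1 h, 2318 and 2552 TPM at 8 h and 2242 and 2282 TPM at 16 h. No treated library overlapped CON, and the FSK libraries at 8 and 16 h stood well above all Ex-4 libraries. The log2 difference from CON was 1.27 ± 0.0672 (SE from limma, n = 2 libraries a group, adjusted p = 6.0e-14) at 8 h of Ex-4 and 2.74 ± 0.0672 (adjusted p = 8.0e-22) at 8 h of FSK, a ratio of mean TPM of 6.70. At 1 h the difference was 0.40 with Ex-4 and 0.46 with FSK, with limma adjusted p of 6.6e-05 and 4.4e-06, but under 1.5-fold. The FSK value at 1 h passed the fold minimum when libraries were centred on their median (0.59) and under edgeR with TMM (0.59).

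In Med14 S983A cells Vgf began lower and rose by a larger factor. It was at 51.9 and 59.4 TPM in CON, 92.5 and 88.2 TPM at 1 h, 204 and 194 TPM at 8 h and 128 and 155 TPM at 16 h of Ex-4. FSK gave 157 and 174 TPM at 1 h, 1584 and 1530 TPM at 8 h and 1267 and 1192 TPM at 16 h. The 2 CON libraries were the lowest Vgf values of the whole series, which spanned 49.2-fold. At 8 h of FSK the log2 difference was 4.78 ± 0.0672 (limma adjusted p = 2.5e-26), a TPM ratio of 27.98. In TPM the rise was 1501 in Med14 S983A and 2072 in WT, so the larger factor went with the smaller gain in transcripts.

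Scg2, the precursor of secretoneurin, was lower in every contrast in which it was called, 6 of the 12. In WT cells it was at 581 and 575 TPM in CON, 577 and 579 TPM at 1 h, 367 and 382 TPM at 8 h and 536 and 562 TPM at 16 h of Ex-4. With FSK it was at 540 and 567 TPM at 1 h, 194 and 203 TPM at 8 h and 96.7 and 95.5 TPM at 16 h. The low point with Ex-4 was at 8 h, and with FSK the level was lowest at the last time. At 16 h of FSK the log2 difference was -2.58 ± 0.0370 (limma adjusted p = 4.5e-26), with 16.6% of the CON level left. The call at 8 h of Ex-4 in WT, a log2 difference of -0.63, rested on the fold minimum: it was -0.50 with median centring, -0.47 with ERCC scaling and -0.54 with edgeR and TMM, none of them called.

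Med14 S983A cells held more Scg2 and lost more of it. Levels were 1378 and 1335 TPM in CON, 1373 and 1310 TPM at 1 h, 846 and 806 TPM at 8 h and 1182 and 1165 TPM at 16 h of Ex-4. FSK brought them to 1244 and 1272 TPM at 1 h, 284 and 290 TPM at 8 h and 134 and 139 TPM at 16 h. The log2 difference at 16 h of FSK was -3.31 ± 0.0370 (limma adjusted p = 3.5e-28), which left 10.0% of CON. Vgf transcripts per Scg2 transcript, both per length, went from 0.632 and 0.625 in WT CON to 23.2 and 23.9 at 16 h of FSK, and from 0.0377 and 0.0445 to 9.49 and 8.57 in Med14 S983A.

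Chga, the most abundant member, was the least variable over time with Ex-4, and its log2 differences from CON with Ex-4 lay between -0.16 and 0.08, none called. It fell with 16 h of FSK. WT libraries were at 5978 and 5872 TPM in CON, 4942 and 5250 TPM at 8 h and 3316 and 3233 TPM at 16 h of FSK, and the last difference was -0.86 ± 0.0413 (limma adjusted p = 9.1e-16). In Med14 S983A the levels were 4771 and 5135 TPM in CON, 4082 and 4205 TPM at 8 h and 1895 and 1786 TPM at 16 h, a difference of -1.43 ± 0.0413 (limma adjusted p = 2.8e-20). The fall in Med14 S983A kept its call in every fit that was run, and the one in WT was -0.46 with ERCC scaling, below the fold minimum.

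Chgb, the second chromogranin, moved in opposite directions with the agents Ex-4 and FSK at 8 and 16 h in WT cells. At 1 h it was above CON with either agent, in WT by 0.15 with Ex-4 and 0.12 with FSK, neither called. In WT cells it was at 1360 and 1341 TPM in CON, 1472 and 1528 TPM at 1 h, 1672 and 1728 TPM at 8 h and 2041 and 2212 TPM at 16 h of Ex-4. With FSK it was at 1459 and 1483 TPM at 1 h, 872 and 937 TPM at 8 h and 778 and 786 TPM at 16 h. The difference at 16 h was 0.65 ± 0.0555 with Ex-4 (limma adjusted p = 2.7e-10) and -0.79 ± 0.0555 with FSK (limma adjusted p = 1.9e-12). The FSK value lost its call with median centring (-0.55) and with ERCC scaling (-0.39).

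In Med14 S983A Chgb libraries were at 176 and 176 TPM in CON, 215 and 209 TPM at 1 h, 322 and 343 TPM at 8 h and 442 and 440 TPM at 16 h of Ex-4. FSK gave 219 and 257 TPM at 1 h, 135 and 149 TPM at 8 h and 157 and 150 TPM at 16 h. Every Ex-4 library and the 1 h FSK libraries lay above CON, and the 8 and 16 h FSK libraries lay below it. The difference at 1 h of FSK was 0.43 (limma adjusted p = 4.5e-07), under 1.5-fold, and 0.60, called, with DESeq2 on median-of-ratios. The rise was 0.91 ± 0.0555 at 8 h of Ex-4 (limma adjusted p = 1.2e-12) and 1.32 ± 0.0555 at 16 h (limma adjusted p = 3.2e-16). The FSK differences at 8 and 16 h, -0.31 and -0.20, were not called. All genes had medians of -0.28 and -0.10 in these 2 FSK contrasts. Median centring shifted the median at 8 h by 0.34, and ERCC scaling shifted that at 16 h by 0.22. Both shifts were larger than the Chgb fall at that time, so its direction with FSK depended on the scaling.

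Scg3, the binding partner of Chga, was called higher in 6 treatment contrasts and lower in none. WT libraries were at 444 and 443 TPM in CON, 743 and 787 TPM at 16 h of Ex-4, 859 and 926 TPM at 8 h of FSK and 1144 and 1187 TPM at 16 h of FSK. Med14 S983A libraries were at 438 and 418 TPM in CON, 767 and 753 TPM at 16 h of Ex-4, 673 and 715 TPM at 8 h of FSK and 832 and 804 TPM at 16 h of FSK. These treated libraries all lay above CON of their genotype. At 16 h the difference in WT was 0.79 ± 0.0533 with Ex-4 (limma adjusted p = 4.3e-12) and 1.39 ± 0.0533 with FSK (limma adjusted p = 7.7e-18), and in Med14 S983A it was 0.83 ± 0.0533 and 0.93 ± 0.0533 (limma adjusted p = 1.4e-12 and 2.9e-14). At 8 h of Ex-4 the values of 0.41 in WT and 0.31 in Med14 S983A were under 1.5-fold.

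Scg5, the Pcsk2 chaperone, was called lower in 3 treatment contrasts, all with FSK. WT libraries were at 1420 and 1449 TPM in CON, 1086 and 1081 TPM at 16 h of Ex-4, 921 and 1002 TPM at 8 h of FSK and 675 and 682 TPM at 16 h of FSK. Med14 S983A libraries were at 480 and 466 TPM in CON, 461 and 459 TPM at 16 h of Ex-4, 267 and 285 TPM at 8 h of FSK and 189 and 193 TPM at 16 h of FSK. The difference at 16 h of FSK was -1.08 ± 0.0359 in WT (limma adjusted p = 4.7e-19) and -1.30 ± 0.0359 in Med14 S983A (limma adjusted p = 1.0e-20). At 8 h of FSK it was -0.58 in WT, not called, and -0.78 in Med14 S983A, called on TPM but at -0.44 with median centring.

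Untreated Med14 S983A and WT cells differed in 4 of the 6 granin genes, beside 19.4% of all genes called. Scg2 was higher, with the libraries given above at 1378 and 1335 TPM against 581 and 575 TPM and a log2 difference of 1.23 ± 0.0370 (limma adjusted p = 1.1e-19). Chgb was lower by -2.93 ± 0.0555 (limma adjusted p = 6.2e-24), a WT level 7.67 times that of Med14 S983A. Vgf was lower by -2.69 ± 0.0672 (limma adjusted p = 2.1e-21) and Scg5 by -1.60 ± 0.0359 (limma adjusted p = 2.1e-22). Chga differed by -0.26, under 1.5-fold, and Scg3 by -0.05 with a 95% interval of -0.16 to 0.06. All 4 calls held in every other fit and without any single library. The Gcg level moved with the same comparison, from 167 TPM in WT to 6.32 TPM in Med14 S983A. Beta cell genes differed in it too. The insulin gene Ins2 was at 2938 TPM in WT and 35068 TPM in Med14 S983A, a log2 difference of 3.57 (limma adjusted p = 2.3e-25). The glucose transporter Slc2a2 was at 517 and 62.6 TPM (-3.02, limma adjusted p = 5.2e-25), and the amylin gene Iapp at 6990 and 3270 TPM (-1.10, limma adjusted p = 6.4e-17). Ins1, Pdx1, Nkx2-2 and Nkx6-1 were not called, with differences of 0.25, 0.19, 0.25 and -0.58. The part of these shifts in the granin differences was not tested.

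**Figure D3:**
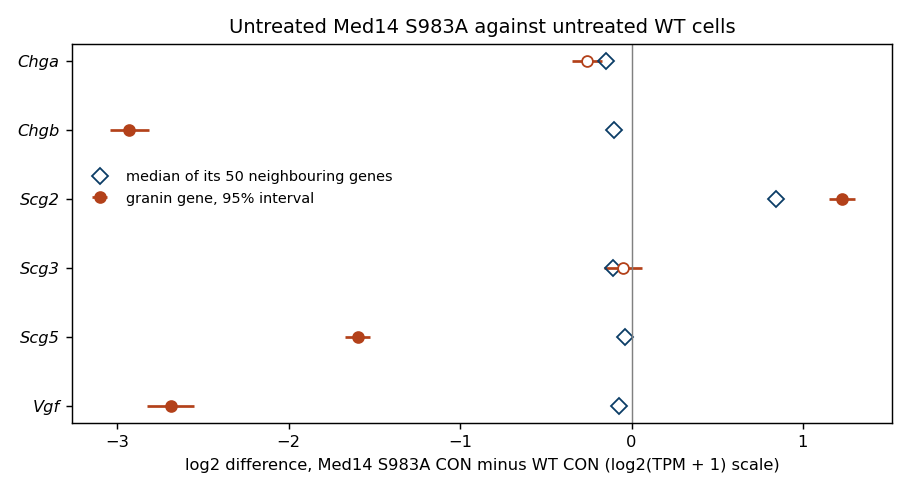
Log2 difference of each granin gene between untreated Med14 S983A and untreated WT cells (circles, 95% intervals from limma, filled when called) with the median of the 50 tested genes nearest to it on its chromosome (diamonds). For Scg2 the neighbours' median of 0.84 lies on the same side as the gene at 1.23, whereas the neighbours of Chgb, Scg5 and Vgf lie between -0.10 and -0.04.

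The genes around each member were measured for the same difference. For Scg2 the 25 tested genes on each side, which span 82142981 to 94325445 of chromosome 9, had a median of 0.84, and 47 of these 50 were higher in Med14 S983A CON. With 10 genes on each side the median was 0.92. Medians around the other members lay between -0.15 for Chga and -0.04 for Scg5, while all genes had a median of -0.07. The part of the chromosome 9 neighbourhood in the Scg2 difference was not tested.

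The order of genotypes was kept over the treatments for most members. Med14 S983A was below WT in all 7 conditions for Chga (56.2% to 88.2% of the WT mean), Chgb (13.05% to 20.8%), Scg5 (28.2% to 42.4%) and Vgf (15.3% to 63.9%), with no overlap of libraries. Scg2 was above WT in all 7, at 1.42 to 2.35 times the WT mean. Scg3 libraries of the genotypes overlapped in 3 conditions, and its ratio ranged from 0.702 to 1.03. For Vgf and Scg2 the genotypes came closest with 8 and 16 h of FSK. Vgf was at 63.9% and 54.4% of WT there, and Scg2 at 1.44 and 1.42 times WT.

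Whether the genotypes responded differently was tested as an interaction. At 1 h of Ex-4 and at 8 h of Ex-4 no member was called (0.672% and 2.77% of all genes), and at 16 h of Ex-4 1 of 6 was, Chgb (7.24%). At an unadjusted limma p under 0.05 the counts at 1 and 8 h were 1 and 2, and edgeR with TMM and DESeq2 called 0 at both. Among all genes, 1.55% at 1 h and 18.6% at 8 h had a limma adjusted p under 0.05 with no fold minimum. The log2 rise of Chgb at 16 h of Ex-4 was 0.67 ± 0.0785 larger in Med14 S983A (limma adjusted p = 2.9e-07), while its gain in TPM was 265 there and 776 in WT. That call was lost with median centring (0.54), ERCC scaling (0.22) and edgeR with TMM (0.56), while Chga at the same time went from -0.18 to -0.62 with ERCC scaling and was then called. Chgb at 8 h of Ex-4 missed it at 0.58 and passed without any one of WT CON replicate 2 (0.59), WT 8 h Ex-4 replicate 2 (0.60) or Med14 S983A 8 h Ex-4 replicate 1 (0.62). Vgf at 8 h of Ex-4, at 0.55, passed without Med14 S983A CON replicate 2 (0.64).

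With FSK the interaction was called for 1 member at 1 h (1.64% of all genes), 2 at 8 h (13.9%) and 3 at 16 h (17%). Vgf was larger in Med14 S983A by 1.099 ± 0.0951 at 1 h (limma adjusted p = 8.8e-09), 2.05 ± 0.0951 at 8 h (9.4e-15) and 1.81 ± 0.0951 at 16 h (6.3e-14). Scg2 was more negative in Med14 S983A by -0.70 ± 0.0524 at 8 h (limma adjusted p = 6.1e-11) and -0.73 ± 0.0524 at 16 h (2.0e-11). Chgb gave 0.59 ± 0.0785 at 16 h (limma adjusted p = 7.1e-07), just past the fold minimum, and fell short of it without WT CON replicate 1 (0.58), WT 16 h FSK replicate 1 (0.58) or Med14 S983A 16 h FSK replicate 1 (0.56) and with median centring (0.50). Chga at 16 h, at -0.57, was just short of the minimum and passed it with median centring (-0.66) and ERCC scaling (-0.73), and without WT 16 h FSK replicate 2 (-0.59), Med14 S983A CON replicate 1 (-0.63) or Med14 S983A 16 h FSK replicate 1 (-0.61). The other members' interactions with FSK lay between -0.46 and 0.31, and the lowest of them, Scg3 at 16 h, was called with ERCC scaling (-0.61).

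Ex-4 and FSK were compared directly at each time. In WT no member differed at 1 h (1.79% of all genes; 0 members at an unadjusted limma p under 0.05 and 0 with edgeR or DESeq2), 4 differed at 8 h (28.1%) and all 6 at 16 h (18.7%). At 16 h Chga, Chgb, Scg2 and Scg5 were higher with Ex-4 and Scg3 and Vgf higher with FSK. The widest gap was that of Scg2, 2.502 ± 0.0370 on the log2 scale (limma adjusted p = 3.2e-25), followed by Vgf at -1.55 ± 0.0672 (limma adjusted p = 2.8e-16). Scg3 at -0.61 was called at 16 h and lost its call without WT 16 h Ex-4 replicate 1 (-0.56) or WT 16 h FSK replicate 2 (-0.58). At 8 h Scg3 at -0.59 lost it with ERCC scaling (-0.46) and without WT 8 h Ex-4 replicate 1 (-0.51) or WT 8 h FSK replicate 2 (-0.54).

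In Med14 S983A 1 member differed between the agents at 1 h, Vgf at -0.86 ± 0.0672 (limma adjusted p = 2.8e-10; 3.03% of all genes). At 8 h 3 of 6 differed (36.5%) and at 16 h 5 of 6 (16.3%). At 16 h Scg2 was higher with Ex-4 by 3.10 ± 0.0370 (limma adjusted p = 3.9e-27) and Vgf lower by -3.11 ± 0.0672 (limma adjusted p = 3.3e-22). Scg3 differed by -0.11 there and was not called, and at 8 h it was at -0.39 on TPM and -0.69, called, with median centring.

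Between 8 and 16 h no member was called with Ex-4 in WT (5.58% of all genes) or in Med14 S983A (3.96%). At an unadjusted p under 0.05 limma gave 4 members in WT and 6 in Med14 S983A, all under 1.5-fold. Of all genes, 51.7% in WT and 41.9% in Med14 S983A had a limma adjusted p under 0.05 when no fold minimum was set. Scg2 was higher at 16 h by 0.55 in WT and 0.51 in Med14 S983A, and Vgf lower by -0.19 and -0.49. Scg2 in WT passed the fold minimum under other scalings (0.62 with edgeR and TMM and 0.73 with ERCC scaling) and without WT 16 h Ex-4 replicate 1 (0.59), and Vgf in Med14 S983A passed it with ERCC scaling (-0.61) and without Med14 S983A 16 h Ex-4 replicate 2 (-0.62). With FSK Chga and Scg2 were lower at 16 h than at 8 h in both genotypes (17.6% of all genes in WT and 27.9% in Med14 S983A). Chga differed by -0.64 in WT and -1.17 in Med14 S983A and Scg2 by -1.04 and -1.07, and the Chga value in WT was -0.26 with ERCC scaling, no longer called. Scg3 in WT, at 0.38, was called with ERCC scaling (0.77), and Scg5, at -0.50 in WT and -0.53 in Med14 S983A, was called with median centring (-0.65 and -0.71).

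The make-up of the family changed more than its sum. The 6 transcripts added up to 10152 and 10041 TPM in WT CON, or 1.01% of all TPM, to 11038 and 11605 TPM at 16 h of Ex-4 and to 8252 and 8265 TPM at 16 h of FSK. In Med14 S983A the sum was 7296 and 7590 TPM in CON, 7346 and 7497 TPM at 16 h of Ex-4 and 4473 and 4264 TPM at 16 h of FSK, or 0.437% of all TPM. Chga made up 39.7% to 67.9% of the sum over the groups. The share of Vgf went from 3.62% and 3.58% in WT CON to 27.2% and 27.6% at 16 h of FSK, and from 0.711% and 0.782% to 28.3% and 27.9% in Med14 S983A. The share of Scg2 went from 5.73% and 5.73% to 1.17% and 1.16% in WT and from 18.9% and 17.6% to 2.98% and 3.26% in Med14 S983A. With FSK at 8 and 16 h Vgf ranked behind only Chga in both genotypes, whereas in every CON group it was the lowest of the 6.

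**Figure D4:**
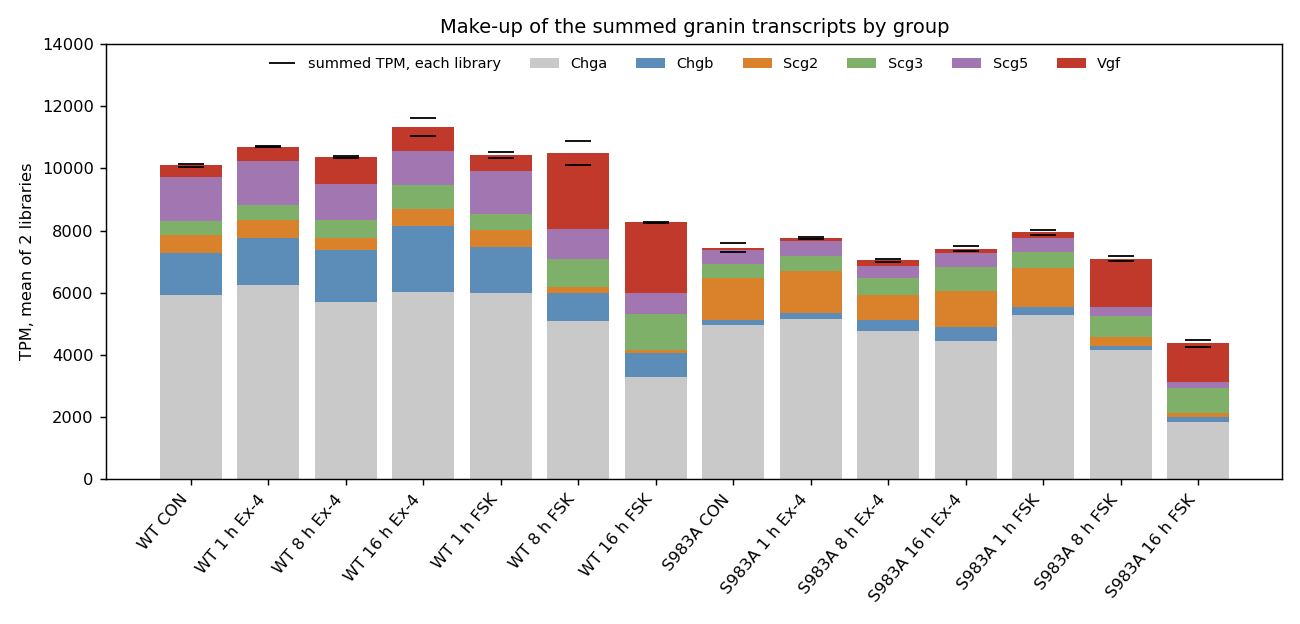
Stacked bars give the mean TPM of the 6 granin transcripts in each of the 14 groups, and short lines give the summed TPM of each of the 2 libraries. The sum falls to 4473 and 4264 TPM at 16 h of FSK in Med14 S983A, while the Vgf part grows to 28.3% and 27.9% of it, from 0.711% and 0.782% in CON.

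The pattern of each member over the 14 group means was compared with that of 7676 genes averaging 10 TPM or more by Pearson's r, given as a description because groups of one genotype share a cell line and all share 1 table. Chga was most like Mertk (0.969), Ank3 (0.967) and Syt13 (0.962), and Chgb most like Hivep2 (0.975), Tmem183a (0.972) and Taok3 (0.972). For Scg2 the nearest were Lgals2 (0.987), Gc (0.979) and Vsnl1 (0.978), and for Scg3 they were Sc5d (0.962), Epas1 (0.961) and Cyp51 (0.944). Sc5d and Cyp51 are enzymes of cholesterol synthesis. Scg5 was most like Rtbdn (0.986) and Sema4d (0.985), and Vgf most like Crb3 (0.974), Psmb7 (0.960) and Psmb4 (0.958). Psmb7 and Psmb4 are proteasome subunits. Pearson's r does not reflect the size of a change. Group means ran from 374 to 503 TPM for Psmb7 and from 696 to 969 TPM for Psmb4, against 55.6 to 2435 TPM for Vgf. Those of Tmem183a ran from 121 to 170 TPM, against 142 to 2126 TPM for Chgb. Among the members themselves Scg2 and Vgf gave -0.926 and Chgb and Scg5 0.922. Within the 7 groups of one genotype Scg2 and Vgf gave -0.909 in WT and -0.931 in Med14 S983A, and Chgb and Scg5 0.643 and 0.545, so the high value of the second pair was larger across both genotypes than within either.

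Of 25 genes linked to the granins and their granules, 20 were tested, and the other 5 did not reach the mean of 1 TPM or had no row. The 25 comprise the processing enzymes and their inhibitor Pcsk1n, proteins of the granule, factors of granule formation and the transcriptional regulator Rest. Pcsk1n and Rest were not among the tested genes. At 16 h of Ex-4 4 of 20 were called in WT, all higher (Cyb561, Pam, Pcsk2 and Ptprn), beside 11.8% of all genes called and 3.53% called higher. In Med14 S983A 4 were called, Pam and Ptprn higher and Pcsk1 and Slc30a8 lower, beside 11.9% of all genes. At 16 h of FSK 10 of 20 were called in WT, 6 higher and 4 lower, beside 34.5% of all genes (10.3% higher and 24.1% lower). In Med14 S983A 9 were called, 2 higher and 7 lower, beside 33.3% (12.2% higher and 21.1% lower). In untreated cells 3 of 20 differed by genotype, with Pam and Pcsk1 higher and Ptprn2 lower in Med14 S983A, a share near the 19.4% of all genes. Cpe, the carboxypeptidase that trims the cut ends, was called in none of the 29 contrasts, and neither were Atp6ap1 and Pick1.

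The 5 genes named by the number of contrasts with a call were Pam (16 of 29), Pcsk1 (13), Ptprn (11), Slc30a8 (10) and Pcsk2 (8, tied with Ptprn2 and Vps41). Pam, which amidates peptide ends, was at 207 and 195 TPM in WT CON, 825 and 876 TPM at 16 h of Ex-4 and 1709 and 1748 TPM at 16 h of FSK, and in Med14 S983A at 554 and 519 TPM in CON and 2385 and 2379 TPM at 16 h of FSK. Pcsk1, a convertase that opens prohormones, was at 103 and 96.8 TPM in WT CON and 50.7 and 53.5 TPM at 16 h of FSK, and in Med14 S983A it went from 173 and 152 TPM to 27.7 and 26.9 TPM. So Pam was higher and Pcsk1 lower at 16 h of FSK in both genotypes, with limma adjusted p of 6.2e-26 and 3.3e-13 in WT.

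Pcsk2, the convertase that Scg5 assists, moved in opposite directions in the genotypes at 16 h of FSK. It was at 748 and 693 TPM in WT CON and 1221 and 1224 TPM at 16 h of FSK, and in Med14 S983A at 739 and 737 TPM in CON and 417 and 417 TPM at 16 h of FSK. The interaction was -1.59 ± 0.0492 (limma adjusted p = 4.0e-18). At 16 h of Ex-4 Pcsk2 was at 1318 and 1357 TPM in WT, called higher than CON by 0.89, and at 847 and 835 TPM in Med14 S983A, above both CON libraries but at 0.19 not called. The granule membrane protein Ptprn was at 274 and 259 TPM in WT CON and 770 and 754 TPM at 16 h of FSK, and at 361 and 378 TPM and 839 and 814 TPM in Med14 S983A. The zinc transporter Slc30a8 was at 803 and 750 TPM in WT CON and 399 and 403 TPM at 16 h of FSK, and in Med14 S983A it went from 817 and 750 TPM to 154 and 158 TPM. The interaction at 16 h of FSK was called for Slc30a8 (-1.37), Pcsk1 (-1.60) and Pam (-0.95) and not for Ptprn.

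**Figure D5:**
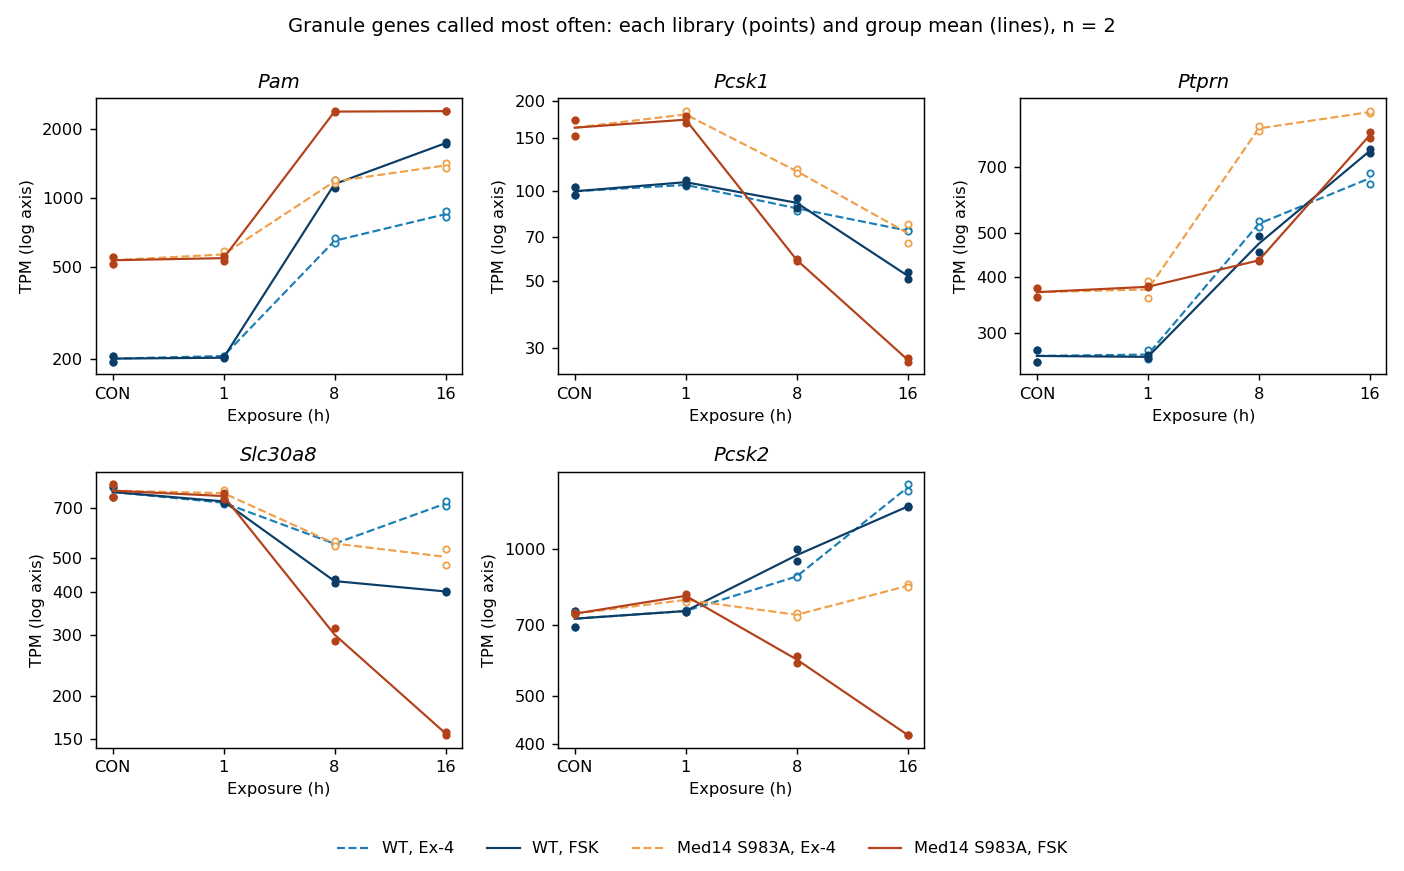
Levels of Pam, Pcsk1, Ptprn, Slc30a8 and Pcsk2 in TPM on log axes against exposure at CON, 1, 8 and 16 h, spaced evenly, with points for single libraries and lines for the means of 2. The FSK lines for Pcsk2 part after 1 h, to 1221 and 1224 TPM in WT and to 417 and 417 TPM in Med14 S983A at 16 h.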

How the data were processed

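INS-1 RNA was sequenced in 28 libraries, 2 for each of 14 groups. The authors aligned reads with STAR 2.5.3a to rn6 joined with the ERCC sequences (versions from the submitters' processing notes) and computed the deposited TPM per RefSeq transcript with HOMER 4.11.1; whether strand was used is not given in the sources used here, so reads of antisense partners cannot be told apart. The deposited ERCC counts were made by the authors with QoRTs. Replicates were not pooled. The table held 19131 transcripts and 92 ERCC lines, and 1676 transcripts were dropped to keep 1 per symbol.

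Members, lists and tests were chosen with earlier results of these data known. limma 3.58.1 (R 4.3.3) was fitted to log2(TPM + 1) over 14 group means and the 10275 genes whose mean reached 1 TPM, with 29 two-sided contrasts and a trended variance; fold changes on this scale understate low genes. Called genes had an adjusted p under 0.05 and a change over 1.5-fold. Fragments were recovered from TPM, transcript length and the ERCC counts. The tolerance for a whole number of reads was 0.05 plus an allowance for the rounding of TPM. Of 124685 values below 1000 reads with a tolerance small enough to test, 100.0% lay within it (22.6% by chance). On the recovered fragments edgeR 4.0.16 and DESeq2 1.42.0 were run as alternatives, and edgeR with TMM called 3582 genes for WT 16 h FSK. ERCC RNA took 0.671% to 1.03% of fragments and reports on RNA mass, not cells. Duplicates differed beyond sampling noise (chi-square per degree of freedom 2.39 to 9.17). Named genes were the 6 granins, up to 5 of 25 genes linked to the granins by number of calls (ties by name) and the 3 genes most alike to each granin. Alternatives changed the pseudocount (0.1), the level filter (none, or 5 TPM), the scaling, the libraries fitted, the replicate block and the fold minimum. Scripts were tested on simulated data. Promoters came from RefSeq (GRCr8). Some genes that these rules name are not reported here.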

Additional observations from a re-analysis of the deposited data

Results flagged for a closer look

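In 7 cases the response of a granin gene differed between Med14 S983A and WT cells by limma's interaction test. Vgf rose more on the log2 scale in Med14 S983A with FSK, by 1.099 at 1 h (adjusted p = 8.80e-09), 2.05 at 8 h (adjusted p = 9.35e-15) and 1.81 at 16 h (adjusted p = 6.34e-14). Scg2 fell further there with FSK, with interactions of -0.70 at 8 h (adjusted p = 6.07e-11) and -0.73 at 16 h (adjusted p = 2.00e-11). Chgb gave 0.67 at 16 h of Ex-4 (adjusted p = 2.86e-07) and 0.59 at 16 h of FSK (adjusted p = 7.10e-07), and both Chgb values fell below the fold minimum under other scalings. Groups of 2 libraries are too small for a check of single outlying libraries.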

How the results depend on the processing

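Of 2928 recomputed log2 differences of members, 2775 kept their side of the threshold, 111 gained a call and 42 lost one, and no called value changed sign; 157 values called in neither fit did. The pseudocount of 0.1 TPM, both other level filters, the fit on the libraries of a contrast alone and the replicate block changed none of 174 calls each; the replicate block left, for example, 6 members called at WT 16 h FSK. Same-numbered libraries did not pair: 91 correlations of their deviations ran from -0.28 to 0.283, 17 of them over 0.1. The number of members called went from 2 to 1 for WT 8 h Ex-4 (median-centred, ERCC scaling, edgeR TMM, DESeq2 median-of-ratios), from 0 to 1 for WT 1 h FSK and from 1 to 0 for the 16 h Ex-4 interaction (both with median-centred libraries, edgeR TMM and DESeq2 median-of-ratios), and from 1 to 2 for Med14 S983A 1 h FSK (DESeq2 median-of-ratios). It went from 0 to 1 for WT Ex-4 at 16 against 8 h (median-centred, ERCC scaling, edgeR and DESeq2 with either size factors) and for Med14 S983A Ex-4 at 16 against 8 h (ERCC scaling, edgeR and DESeq2 with ERCC size factors). With no fold minimum, counts at 1, 8 and 16 h were set beside the share of all genes called. They were 2, 5 and 4 for WT Ex-4 (25.2%, 59.2% and 68.7%) and 2, 6 and 6 for WT FSK (44.2%, 84.4% and 80.5%). For Med14 S983A they were 3, 5 and 5 with Ex-4 (26.2%, 50.6% and 61.9%). With FSK there they were 4, 6 and 6 (52.4%, 84.6% and 78.9%). The Ex-4 interactions gave 0, 2 and 5 (1.55%, 18.6% and 42.0%) and the FSK interactions 2, 5 and 6 (5.84%, 53.6% and 57.9%). Ex-4 against FSK in Med14 S983A gave 2 at 1 h (28.1%) and 6 at 8 h (80.7%). For 16 against 8 h the counts were 4 with WT Ex-4 (51.7%) and 5 with WT FSK (67.8%). In Med14 S983A they were 6 with Ex-4 (41.9%) and 5 with FSK (76.2%). Leaving out 1 library gave 3 to 5 calls for WT 8 h FSK (5 without WT 8 h FSK replicate 2), and 0 to 1 for the 8 h Ex-4 interaction, WT Ex-4 at 16 against 8 h (1 without WT 16 h Ex-4 replicate 1) and Med14 S983A Ex-4 at 16 against 8 h (1 without Med14 S983A 16 h Ex-4 replicate 2); the lone library left was assumed to vary like the other groups. The cause of these changes was not tested. Shares of the granin sum taken by fragments instead of TPM differed by -6.06 to 6.67 percentage points. With at least 3782 fragments per member and library, depth limited none of the values.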
